A study of Caenorhabditis elegans with 2 samples.

Results

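The 6 ONECUT homeobox genes of the nematode Caenorhabditis elegans, ceh-38, ceh-39, ceh-21, ceh-41, ceh-48 and ceh-49, were examined among the genomic sites recovered with a tagged forkhead protein. They were chosen by name together with their peaks in these same lists, in which ceh-38 and ceh-39 had already been seen to carry peaks, and are 6 of 63 genes named ceh- followed by digits and of 19973 nuclear protein-coding genes in Ensembl. What follows on their peaks is therefore a description, and no test was run on them. Chromatin immunoprecipitation followed by sequencing (ChIP-seq) recovers the DNA near a chosen protein. Here the protein was FKH-10, a forkhead transcription factor. The animals were late embryos of both sexes, taken whole, from a strain labelled OP337 that carries unc119(ed3) and the insertion wgIs377 with fkh-10 joined to TY1, EGFP and FLAG tags and with unc119. The antibody label reads fkh-10. The sources used here do not name the promoter that drives the transgene. The numbers of strain and insertion in the label differ, so the libraries are called by their label, eGFP-FKH-10. There was 1 group with 2 libraries, which the labels call biological replicates.

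ONECUT proteins are transcription factors with a single cut domain beside a homeodomain, and both domains take part in binding DNA. In C. elegans, ceh-39 is known as one of the X-linked signals that count X chromosomes and so set sex, through repression of the switch gene xol-1, and ONECUT genes as a group are known to act in neurons, where ceh-48 is expressed throughout the nervous system. RefSeq names the products of 3 of the 6 genes "One cut domain family member" (ceh-38, ceh-48 and ceh-49) and those of the other 3 (ceh-39, ceh-21 and ceh-41) only as homeobox proteins, so the annotation used here carries the family name for 3 of them.

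Some of these genes are neighbours. On chromosome X, ceh-41 (WBGene00000462, 1846608 to 1848675), ceh-21 (WBGene00000444, 1848779 to 1852736) and ceh-39 (WBGene00000460, 1853874 to 1856172) lie in a row on the minus strand within 9.56 kb, with T26C11.9 between ceh-21 and ceh-39. The others are apart: ceh-38 (WBGene00000459) runs from 6951526 to 6955409 on the plus strand of chromosome II, ceh-48 (WBGene00015934) from 6812108 to 6815607 on the plus strand of IV, and ceh-49 (WBGene00017538) from 6118333 to 6120206 on the minus strand of V. All positions are 1-based on ce11, the build of the peak lists, which has the coordinates of WBcel235. A gene's window here runs from 2000 bp upstream of its 5' end to its 3' end. The windows measure 3.87 to 5.96 kb, and those of ceh-21 and ceh-41 share 1897 bp and those of ceh-39 and ceh-21 share 863 bp, so 1 summit can count for 2 neighbours.

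The deposited peak lists read were 4. A short list had been filtered by IDR (irreproducible discovery rate), a method that compares the ranks of peaks between lists. A peak in it need not rank alike in both replicates, as the ranks at ceh-38 below show. This thresholded list held 378 peaks, the same number as the pooled peaks at or above its lowest height. A longer list made from both replicates together (pooled) held 7443 peaks, and those of replicate 1 and replicate 2 alone held 27900 and 30000. The long lists are the input of that filter and are named by the authors as peaks and background. A summit is the position the authors' caller marked in a peak, and a height is the caller's own value, on a scale the files do not state. Heights are therefore compared only within a list. Ranks, with rank 1 the highest peak, are also set side by side between lists as a percent or share of list length. That percent depends on where each list was cut. The files hold no read counts, which leaves sequencing depth unknown, and no interval that needs it is given. The pooled and thresholded lists use the reads of both replicates, so the lists are not independent of each other. No untagged strain was analysed here, so a summit is a place where the caller found a peak and not by itself a site of FKH-10.

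The sequences at the strongest places are shown first, because the results turn on 3 peaks beside ceh-38, ceh-39 and ceh-48. Bases are lower case, and capitals mark a word of the forkhead core (ATAAACA or ATAAATA or GTAAACA or GTAAATA) or of the ONECUT core (ATTGAT or ATCGAT), searched on both strands, where overlapping matches both count. All sequences are from the RefSeq genome of WBcel235. The first is the whole interval between malt-1 and ceh-38 (chrII:6951301-6951525, plus strand), whose last 79 bases lie in the pooled peak of ceh-38.
ceh-38 upstream: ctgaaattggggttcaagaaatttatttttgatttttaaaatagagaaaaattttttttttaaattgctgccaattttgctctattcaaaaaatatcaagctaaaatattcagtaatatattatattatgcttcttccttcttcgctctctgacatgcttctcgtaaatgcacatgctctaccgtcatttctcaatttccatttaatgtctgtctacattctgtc
The next, also from the plus strand (chrII:6951670-6951695), holds the ONECUT word that starts 65 bp beyond the pooled summit of ceh-38.
ceh-38 ONECUT word: ggccatcagtATCGATcggtgtctag
The pooled summit of ceh-39 with 100 bp to either side is given in the direction of the gene (chrX:1856284-1856484, minus strand).
ceh-39 summit: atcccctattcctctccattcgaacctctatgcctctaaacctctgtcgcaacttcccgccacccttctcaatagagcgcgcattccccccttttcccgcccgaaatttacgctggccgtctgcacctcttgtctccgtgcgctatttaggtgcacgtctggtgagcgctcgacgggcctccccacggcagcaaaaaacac
The peak upstream of ceh-48 is shown in the same way (chrIV:6809792-6809992, plus strand).
ceh-48 distal summit: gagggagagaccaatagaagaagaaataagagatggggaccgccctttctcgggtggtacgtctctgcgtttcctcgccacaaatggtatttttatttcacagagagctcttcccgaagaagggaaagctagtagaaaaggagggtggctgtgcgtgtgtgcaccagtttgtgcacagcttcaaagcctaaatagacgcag
The last is the highest summit inside the window of ceh-48, in replicate 1 (chrIV:6811245-6811345, plus strand), shown because it holds a forkhead word.
ceh-48 replicate 1 summit: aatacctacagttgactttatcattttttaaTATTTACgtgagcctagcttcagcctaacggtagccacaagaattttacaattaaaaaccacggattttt

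ONECUT genes had a thresholded summit in 2 of 6 windows, ceh-38 and ceh-39, and the same 2 genes were the only ones of the 6 with a pooled summit. Over all nuclear protein-coding genes, 355 of 19973 windows (1.78%) held a thresholded summit and 5566 (27.9%) a pooled one. Because the genes were chosen with these peaks known, nothing is read from the thresholded count, and the pooled share of 33.3% is near its background. The other homeobox genes here are the 57 remaining genes named ceh- followed by digits, and homeobox genes with other names were not looked at. None of these 57 held a thresholded summit (0%), where a count of 0 allows up to 5.26% (3 counts in 57, counting error only). A pooled summit was held by 14 of them (24.6%).

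At ceh-38 the peak lay at the start of the gene. In the thresholded and pooled lists its summit was at 6951615, 89 bp inside the 5' end, with a height of 36.8, which ranked 370 among 378 thresholded peaks and 370 among 7443 pooled peaks. It was the lowest of the 35 thresholded peaks on chromosome II. The summit fell in annotated 5' untranslated sequence. The 24 annotated transcripts of ceh-38 begin at 11 different positions between 6951526 and 6952070. The gene on the other side, malt-1, the worm relative of a mammalian paracaspase gene, is transcribed away from ceh-38, and its 5' end lay 315 bp from the summit. The nearest annotated RNA gene was 7594 bp away.

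Each replicate had its own summit at that place. In replicate 1 it was at 6951612 with a height of 24.4 and a rank of 281 among 27900. In replicate 2 it was at 6951623 with a height of 11.4 and a rank of 2718 among 30000. The replicates' summits were 11 bp apart, yet the peak stood among the upper 1.01% of peaks in replicate 1 and the upper 9.06% in replicate 2.

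The other summits at ceh-38 were lower than the one at the start of the gene and were each found in 1 replicate. Replicate 1 had one of height 7.92 (rank 23079) in the 3' untranslated region, 3847 bp from the 5' end. Replicate 2 had one of 7.12 (rank 13365) at 553 bp upstream, inside malt-1, and one of 5.06 (rank 27950) in a coding exon at 2999 bp. All 3 ranked far below the summit at the start of the gene.

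At ceh-39 the peak lay upstream of the gene, outside any protein-coding gene. Its summit was at 1856384, 212 bp before the 5' end, with a height of 37.5 in the thresholded and pooled lists, ranked 351 in both. On chromosome X it was number 88 of 98 thresholded peaks. A non-coding RNA gene of 57 bp on the opposite strand, T26C11.10 (1856473 to 1856529), began 89 bp from the summit, inside the peak interval of 1856216 to 1856551. Of all nuclear thresholded summits, 108 of 358 (30.2%) lay within 100 bp of an annotated tRNA, snoRNA, snRNA, miRNA or other non-coding RNA gene, against 10.3% of pooled summits, and the part that such genes play at ceh-39 was not tested. With summits that close to an RNA gene left out, a setting chosen after seeing the data, ceh-38 was the 1 ONECUT gene with a thresholded summit. At that setting 0 of the 57 other homeobox genes had one, and the share of all genes was not computed.

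The replicates placed this peak less tightly than that of ceh-38. Replicate 1 had its summit at 1856428, 256 bp upstream and 45 bp from T26C11.10, with a height of 24.2 and a rank of 289. Replicate 2 had it at 1856331, 159 bp upstream and 142 bp from T26C11.10, with a height of 16.4 and a rank of 639. They were 97 bp apart, to either side of the pooled summit. In percent of list length the ranks were 1.04% in replicate 1 and 2.13% in replicate 2; ceh-38 had the wider gap between its replicates.

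Inside ceh-39 each replicate also had a summit in a coding exon, lower than the one upstream. That of replicate 1 had a height of 8.72 (rank 18366) at 993 bp from the 5' end. That of replicate 2 had a height of 7.77 (rank 10423) at 1152 bp. The pooled list had no summit there.

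Both peaks sat at the edge of the thresholded list. Its lowest height was 36.6 and the highest pooled peak left out of it had 36.5, and in that order ceh-38 at 36.8 and ceh-39 at 37.5 lie just inside. Taking as many of the strongest peaks of replicate 1 alone as the thresholded list holds kept both genes, and the same number of replicate 2 peaks kept neither (0 of 6). Over all nuclear protein-coding genes, 1.75% had a summit among that many replicate 1 peaks and 1.69% among that many replicate 2 peaks, and 0 of the 57 other homeobox genes did in either. At that list length neither call was kept without replicate 1. With as many peaks as the pooled list holds, 3 of 6 ONECUT genes (ceh-38, ceh-39 and ceh-48) had a summit among the strongest of replicate 1, against 26.3% of the other homeobox genes and 28.2% of all genes. Among the strongest of replicate 2, 5 of 6 did (all but ceh-48), with 1 summit counted for both ceh-21 and ceh-41, against 33.3% of the other homeobox genes and 28.8% of all genes.

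**Figure D1:**
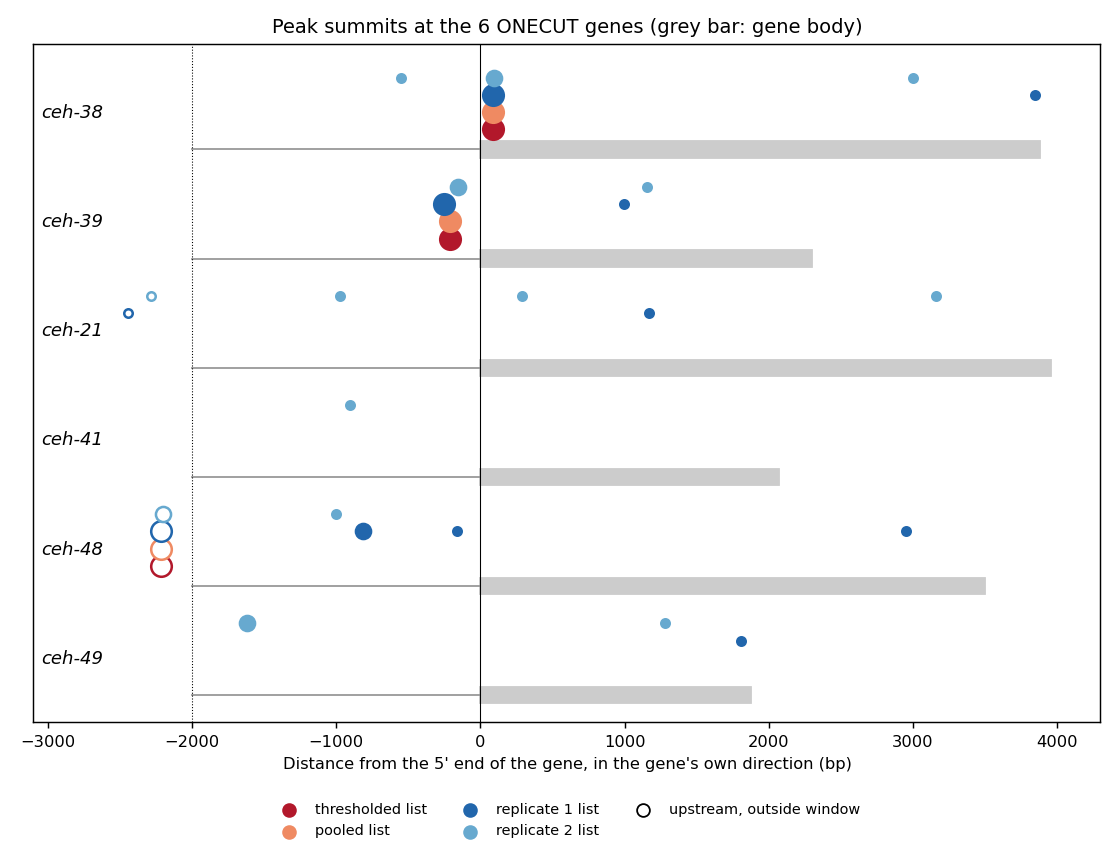
Each circle is a peak summit at 1 of the 6 ONECUT genes, placed by its distance in bp from the 5' end along the gene's direction, with a colour for each list. The largest circles rank among the first 378 of their list, middle ones within the upper 12%, and small ones lower, and open circles lie upstream of the 2000 bp limit (dotted line). Summits of all 4 lists stack at ceh-38 and ceh-39, and at ceh-48 they stack 2216 bp upstream.

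A peak at ceh-48 fell just outside the 2000 bp limit. In the thresholded and pooled lists and in replicate 2 it was higher than the peaks of ceh-38 and ceh-39, and in replicate 1 it was lower than both. Its thresholded and pooled summit was at 6809892 on chromosome IV, 2216 bp before the 5' end, with a height of 40.2 and a rank of 288 in both lists. Replicate 1 had it at 6809894 with a height of 23.1 and a rank of 355, and replicate 2 at 6809903 with a height of 18.7 and a rank of 413. It was thus the highest of the 3 peaks in replicate 2 and the lowest in replicate 1, where ceh-38 ranked 281 and ceh-39 ranked 289. The summit lay 17 bp from C17H12.31, a non-coding RNA gene on the opposite strand (6809739 to 6809875), whose part in the peak was not tested. The 3' end of a protein-coding gene, C17H12.10 (6806799 to 6809630, plus strand), lay nearer to the summit than the 5' end of ceh-48. Among protein-coding 5' ends, that of ceh-48 was the nearest. Which gene the peak belongs to was not tested. With windows that begin 5000 bp upstream, 4 of the 6 genes had a thresholded summit (ceh-38, ceh-39, ceh-48, and ceh-21 through the peak of ceh-39), where 2.67% of all genes and 0 of the 57 other homeobox genes (0%) did. These 4 genes rest on the same 3 peaks. Nothing is read from this count, because the genes were chosen together with their peaks in these lists.

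Inside the window of ceh-48 the replicate lists held weaker summits. Replicate 1 had 3 of them. The highest, 813 bp upstream, had a height of 14.1 and a rank of 3181, and an intronic one at 2950 bp ranked 6598. The lowest, 162 bp upstream, had 8.26 (rank 20982). Replicate 2 had 1, of height 5.36 (rank 25170) at 999 bp upstream. The pooled list had none there.

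The neighbours of ceh-39 on X, ceh-21 and ceh-41, had summits in the replicate lists only. Replicate 1 had 1 summit at ceh-21, in a coding exon 1166 bp from the 5' end, with a height of 8.97 and a rank of 16991, and had 0 at ceh-41. Replicate 2 had 3 at ceh-21. The highest, with 9.72 and a rank of 5063, lay in the 3' untranslated region of ceh-21, and it was also the only summit of ceh-41 in that list, 902 bp upstream of its 5' end. The next, in a coding exon 288 bp from the 5' end, had 6.6 (rank 16183), and the last, 972 bp upstream inside T26C11.9, had 5.74 (rank 22096). The nearest pooled summit to the 5' ends of both genes was that of ceh-39, 3.65 kb from ceh-21 and 7.71 kb from ceh-41.

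At ceh-49 the highest summit of replicate 2 in the window lay inside the next gene. Replicate 2 had a summit of height 11.3 and rank 2806 at 1621 bp upstream, which is inside ttn-1, the worm's titin gene, and an intronic one of 6.37 (rank 17545). Replicate 1 had 1 summit, of 8.26 (rank 20950), in the 3' untranslated region. The pooled list had its nearest summit 133 bp beyond the 3' end, with a height of 20.1 and a rank of 3130, and the nearest thresholded one was 108 kb away. The replicate lists had summits of 14.3 (replicate 1, rank 2951) and 5.04 (replicate 2, rank 28208) near that pooled summit, also outside the window.

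Set against other homeobox genes, the 6 genes lay within the range of the rest in number of summits in the long lists. In replicate 1, 5 of 6 ONECUT windows held a summit, against 39 of 57 others (68.4%) and 67.3% of all genes. In replicate 2 all 6 did, against 43 of 57 others (75.4%) and 71% of all genes. The number per gene ran from 0 to 3 in replicate 1 and from 1 to 3 in replicate 2 for the ONECUT genes, and from 0 to 6 and from 0 to 8 for the others. Per kb of window the median was 0.299 for the ONECUT genes, 0.205 for the others and 0.253 for all genes in replicate 1, and 0.484 for the ONECUT genes, 0.256 for the others and 0.276 for all genes in replicate 2. The values of the 2 sets overlap in both replicates. In replicate 1, 8 of the 57 others were denser than ceh-48, the densest ONECUT gene, and in replicate 2, 12 were denser than ceh-49.

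**Figure D2:**
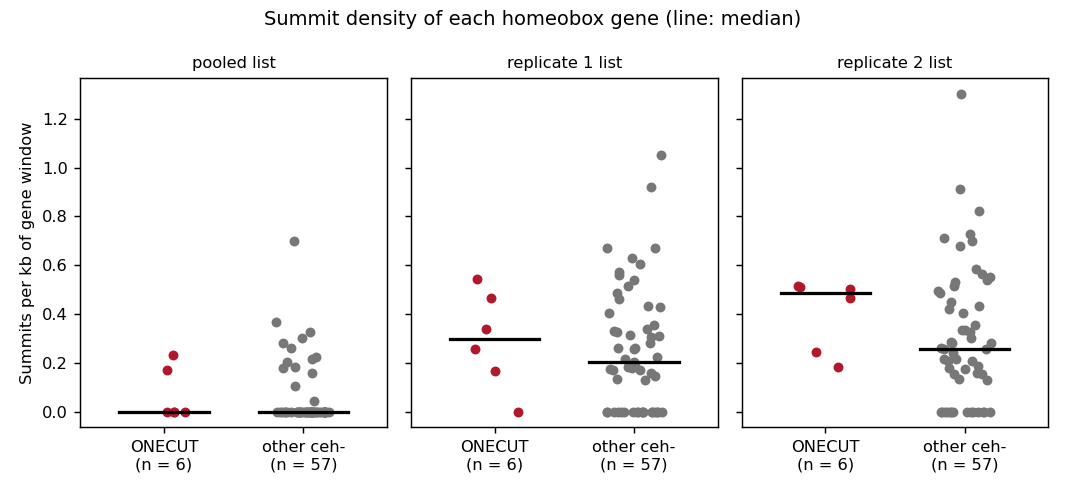
The number of summits per kb of gene window is plotted for the 6 ONECUT genes and the 57 other homeobox genes in 3 lists, 1 point a gene, with the median as a line. ONECUT genes lie within the range of the others in each list, at medians of 0.299 and 0.484 in replicates 1 and 2 against 0.205 and 0.256.

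The best summits of ceh-38 and ceh-39 stood at the top among the 63 genes named ceh- followed by digits in most lists, as was known when they were chosen. In the pooled list none of the 57 others had a higher one. The highest of the others was 25.1, at ceh-5 (rank 1249), followed by 21 at ceh-58 (rank 2587). In replicate 1 no other homeobox gene reached 24.4 or 24.2, and the highest among them had 19.1, at ceh-34 (rank 722), a sine oculis class gene. In replicate 2 none exceeded ceh-39, with ceh-27, an NK class gene, next at 16 (rank 704), and 4 exceeded ceh-38. Over all nuclear protein-coding genes, 1.71% had a higher pooled summit than ceh-38 and 1.58% a higher one than ceh-39. In replicate 1 the shares were 1.22% for ceh-38 and 1.27% for ceh-39, and in replicate 2 they were 12% for ceh-38 and 2.94% for ceh-39. For the other 4 members they were wider apart. In replicate 1, 13.6% of genes had a higher summit than ceh-48, 51.2% than ceh-21 and 57.9% than ceh-49, and in replicate 2 2451 of the 19973 genes did so for ceh-49, and the shares were 21.1% for ceh-21 and ceh-41, and 65.2% for ceh-48. The order of these 4 genes thus differed between the replicates.

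**Figure D3:**
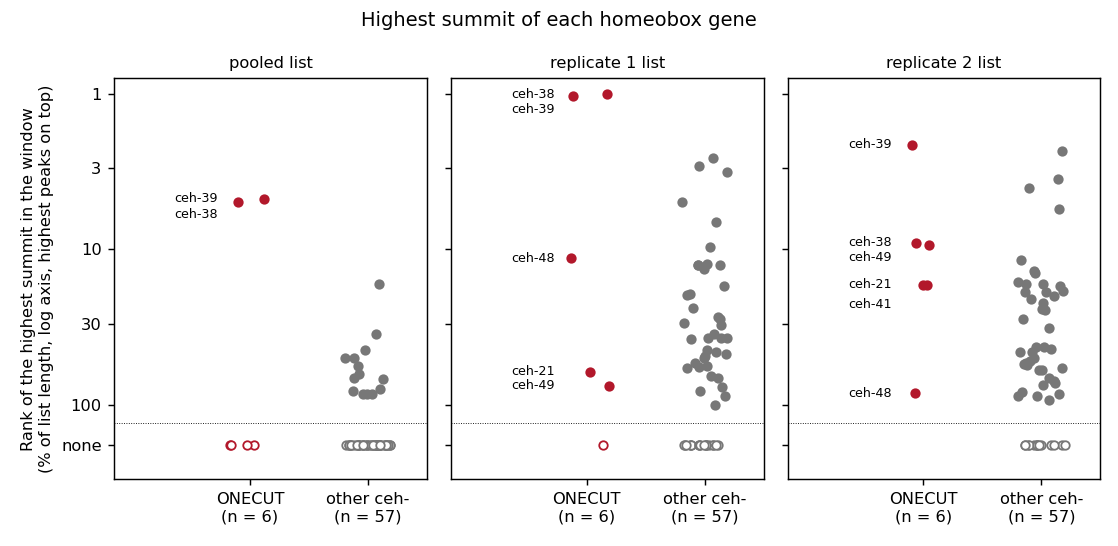
The rank of the highest summit in each gene's window is shown as a percent of list length on a log axis, with the highest peaks on top and genes without a summit at the bottom. Red points are the 6 ONECUT genes and grey points the 57 others. Both ceh-38 and ceh-39 lie above all others in the pooled list and in replicate 1, and ceh-39 does in replicate 2.

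**Figure D4:**
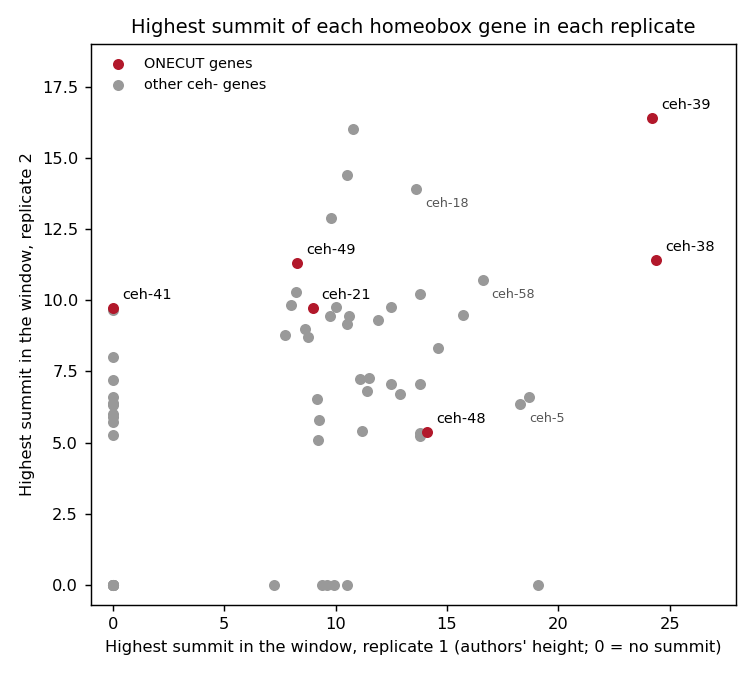
The height of the highest summit in the window of each ceh- gene is plotted for replicate 1 (x axis) and replicate 2 (y axis). Heights are in the authors' units, with 0 for genes without a summit. The genes ceh-38 (24.4, 11.4) and ceh-39 (24.2, 16.4) lie to the right of all others, while ceh-41 has no summit in replicate 1 and ceh-48 (14.1, 5.36) lies low in replicate 2.

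Other homeobox genes came nearest to this pattern when the best rank as a share of list length was compared over the pooled, replicate 1 and replicate 2 lists, which share reads. For ceh-38 the nearest was ceh-58, with a mean absolute difference of 0.121, followed by ceh-5 (0.214) and ceh-18 (0.229). For ceh-39 it was ceh-58 (0.145), then ceh-18 (0.219) and ceh-5 (0.238). A gene without a summit in a list was given a share of 1 there, which sets genes without a pooled summit farther off. The best pooled ranks were 1249 at ceh-5, 2587 at ceh-58 and 4189 at ceh-18, against 370 at ceh-38 and 351 at ceh-39. Most pooled summits were at ceh-18, a POU class gene, with 3 in a window of 16.4 kb, ahead of ceh-5 and ceh-45 with 2 each. Classes were counted only on short lists of ceh- genes that do not hold every gene of a class, and ceh-45 is on none of them. Pooled summits were found at 0 of 3 listed sine oculis genes, 1 of 2 POU, 1 of 4 NK and 0 of 5 paired-like genes. Replicate 1 and replicate 2 summits were found at 1 and 1 of the listed sine oculis genes and 2 and 2 of the POU genes. For the listed NK genes they were found at 3 and 3, and for the paired-like genes at 3 and 4. The cut gene ceh-44 is listed in Ensembl under another name and was not analysed here.

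Summits recurred between replicates at few places. Of 9 different replicate 1 summits in ONECUT windows, 4 had a replicate 2 summit within 200 bp (44.4%), and of 11 replicate 2 summits 4 had one in replicate 1 (36.4%). For the other homeobox genes the shares were 22.7% of 75 and 18.1% of 94, and for all nuclear summits 23.2% and 21.7%. The distance of 200 bp was chosen after the summits were seen, and the ONECUT counts include the 2 peaks for which the genes were chosen.

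The words of both cores were counted around each summit. Within 100 bp of the pooled summits of ceh-38 and ceh-39 and of the distal summit of ceh-48 no forkhead word was found, in windows of 201 bp where 9.5% of thresholded nuclear summits and 18.2% of all nuclear windows hold one. At ceh-38 the 1 ONECUT word was ATCGAT, shown above. A ONECUT word is found in 25.7% of thresholded summit windows and in 24.7% of all nuclear windows of that length, and ceh-39 and the distal summit of ceh-48 had none. Of the 9 different replicate 1 summits in ONECUT windows, 3 held a forkhead word (33.3%) and 2 a ONECUT word (22.2%), where 19.1% of all nuclear replicate 1 summits hold a forkhead word and 23.1% a ONECUT word. Of the 11 different replicate 2 summits, 0 held a forkhead word and 4 a ONECUT word (36.4%), where 15% of all nuclear replicate 2 summits hold a forkhead word and 22.7% a ONECUT word. With so few summits, nothing is read from these shares. The forkhead words in replicate 1 were 1 at the summit 813 bp upstream of ceh-48, TATTTAC as read on the plus strand, which starts 19 bp from the summit, 1 at the intronic summit of ceh-48, and 2 at the summit in the 3' untranslated region of ceh-49. The ONECUT words were at the start of ceh-38 in both replicates, at the exonic summit of ceh-39 in replicate 1, and in replicate 2 at the exonic summit of ceh-38, the summit upstream of ceh-48 and, with 2 words, the summit inside ttn-1. A match says only that the letters are there.

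The share of G and C in the windows of the 3 strong peaks was 57.2% at ceh-39, 49.3% at the distal summit of ceh-48 and 48.3% at ceh-38. The median was 46.3% over thresholded nuclear summits, 38.8% over pooled ones and 35.3% over all nuclear windows of 201 bp. All 3 windows lay above these medians, and the printed interval upstream of ceh-38 had 28.9%.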

How the data were processed

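Peak lists of 2 ChIP-seq libraries of 1 group were analysed. The authors deposited peak lists on ce10 and ce11 for each replicate and for both together, made against a control per their lists of files, and an IDR-thresholded list. The sources used here name neither aligner nor caller nor settings. The deposited signal is the authors' peak height, on a scale not stated. The ce10 lists were not used.

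Summits (start plus offset, written 1-based) were counted in gene windows from Ensembl release 115, with sequence from RefSeq WBcel235, and counts were set beside those of other genes. There are no p-values, and the counting was tested on simulated data. The members, lists and comparisons were chosen with earlier results of these data known. Named were the 6 members, other homeobox genes with thresholded summits, the 3 with most pooled summits, the 3 nearest in rank pattern, and genes that overlap or adjoin. Also named, after their values were seen, were the other homeobox genes with the highest summits. Python 3.11.15 with numpy 2.4.6, pandas 2.3.3 and matplotlib 3.10.9 was used.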

Additional observations from a re-analysis of the deposited data

How the results depend on the processing

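Counts of genes with a summit were recomputed with other windows (1000 bp upstream to 500 bp downstream of the 5' end, called near the 5' end here, 5000 bp upstream to the 3' end, and gene bodies), peak overlap, only the peaks above each list's median height, 1 gene per summit and single replicates. No paired analysis was possible because there is 1 group. The ONECUT count in the thresholded list (2) was 4 from 5000 bp upstream, where 2.67% of all genes had a summit. It was 1 in gene bodies, 0 above the median height, and 1 without summits within 100 bp of an RNA gene, which removes ceh-39. The count of other homeobox genes was 0 at each of these settings. Leaving out a replicate, with as many of the other's strongest peaks, gave 0 (without replicate 1) to 2 ONECUT genes. Of all genes, 1.75% had a summit among those of replicate 1 and 1.69% among those of replicate 2. The pooled ONECUT count (2) was 4 from 5000 bp upstream (39.4% of all genes). It was 1 in gene bodies and 1 away from RNA genes, where 10.5% and 21.1% of the other homeobox genes had a summit. With the strongest peaks of 1 replicate it was 3 (without replicate 2) to 5 (without replicate 1), where 28.2% of all genes had a summit in replicate 1 and 28.8% in replicate 2. In replicate 1 the ONECUT count (5) was 3 near the 5' end, above the median height and at the pooled list's length. At these settings 31.6%, 50.9% and 26.3% of the other homeobox genes had a summit. The share of all genes was computed only for the first window, the 5000 bp window and the strongest peaks. At the other settings, and at every setting of the thresholded list, nothing is read from the ONECUT counts. For the other homeobox genes the pooled count (14) was 5 near the 5' end, 22 from 5000 bp upstream, 6 in gene bodies, 5 above the median height and 9 with 1 gene per summit. Their replicate 1 count (39) was 18 near the 5' end and 15 at the pooled list's length. Their replicate 2 count (43) was 21 near the 5' end, 27 above the median height and 19 at the pooled list's length. The other 50 recomputed counts lay within 1.5 times of the first. The settings on RNA genes and on the pooled list's length were chosen after seeing the data. Depth is unknown, so no limit of detection can be given, and the causes of these shifts were not tested.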
